A study of Mus musculus with 6 samples.

Results

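Glutathione and antioxidant enzyme genes were examined in 2 populations of cancer-associated fibroblasts (CAFs) from mouse colon tumors. The members were chosen by gene symbol, with earlier results of these data known, as the protein-coding genes of the glutathione transferase, glutathione peroxidase, glutathione synthesis and recycling, peroxiredoxin, thioredoxin and superoxide dismutase families, with catalase (Cat), Nqo1, Hmox1, Cbs and Cth. This rule gave 60 members among the 49548 genes of the deposited table, of which 21960 are protein-coding. The mice carried Col6a1-cre and the Rosa26-mTmG reporter on a C57/BL6 background, and all had colitis-associated tumors induced with azoxymethane (AOM), a carcinogen, and dextran sodium sulfate (DSS), which injures the colon lining. In the mTmG reporter, Cre recombination replaces a red Tomato protein with GFP, so that GFP+ cells had Cre activity, or descend from cells that had it, and Tomato+ cells did not. The Cre in these mice is driven by Col6a1 regulatory sequence, which per the study is active mainly in PDGFRa-high fibroblasts and perivascular cells of the intestine, so both populations are mixtures of cell types. After removal of CD45+, EpCAM+, CD31+ and Ter119+ cells, 3 libraries of GFP+ cells (Col6a1+ CAFs) and 3 of Tomato+ cells (Col6a1− CAFs) were made from adenoma tissue, each from tumors pooled over several mice. The labels give neither the age nor the sex of the animals. There were no untreated mice among these 6 libraries, so the comparison shows how the CAF populations differed within tumors and not what tumor formation changed.

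Glutathione is a small thiol peptide built from glutamate, cysteine and glycine by glutamate-cysteine ligase (Gclc and Gclm) and glutathione synthetase (Gss). Glutathione peroxidases use it to reduce peroxides, glutathione transferases attach it to electrophilic compounds, glutathione reductase (Gsr) returns its oxidized form to the reduced form, and gamma-glutamyl transferases break it down outside the cell. Peroxiredoxins, thioredoxins and thioredoxin reductases form a parallel peroxide-reducing system, while superoxide dismutases and catalase remove superoxide and hydrogen peroxide. Many of these genes carry antioxidant response elements bound by NRF2, a transcription factor held in check by KEAP1. In the colon the mucosa is exposed to bacteria, ingested electrophiles and oxidants from inflammatory cells, and both epithelium and stroma express enzymes of this system.

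The promoters of the members that differed most clearly are printed first, since genes of the same Gstm cluster on chromosome 3 differed in opposite directions between the CAF populations. Shown are the windows from 250 bases before to 50 bases after the start site of Gpx3, Gstm2, Gstm5 and Gsto1, and of Gstm7, the closest cluster neighbour of Gstm5, from RefSeq (GRCm38.p6, the mm10 assembly), each 5′ to 3′ on the strand of its gene. Capitals mark the letters TGACNNNGC, the core of the antioxidant response element, and a window without capitals holds no match on either strand. The Gpx3 window is chr11:54902604-54902903 on the plus strand, that of Gstm2 is chr3:107986371-107986670 on the minus strand and that of Gstm5 is chr3:107895604-107895903 on the plus strand. Gstm7 has 2 start sites in RefSeq on the minus strand, and both windows are shown, chr3:107931768-107932067 for the upstream and chr3:107931565-107931864 for the downstream start site. That of Gsto1 is chr19:47854723-47855022 on the plus strand.
Gpx3: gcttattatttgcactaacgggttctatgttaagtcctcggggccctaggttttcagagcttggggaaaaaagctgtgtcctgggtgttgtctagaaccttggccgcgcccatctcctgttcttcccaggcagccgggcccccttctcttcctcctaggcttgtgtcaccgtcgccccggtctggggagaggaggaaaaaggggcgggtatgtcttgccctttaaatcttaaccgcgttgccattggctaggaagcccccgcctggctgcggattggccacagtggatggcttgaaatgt
Gstm2: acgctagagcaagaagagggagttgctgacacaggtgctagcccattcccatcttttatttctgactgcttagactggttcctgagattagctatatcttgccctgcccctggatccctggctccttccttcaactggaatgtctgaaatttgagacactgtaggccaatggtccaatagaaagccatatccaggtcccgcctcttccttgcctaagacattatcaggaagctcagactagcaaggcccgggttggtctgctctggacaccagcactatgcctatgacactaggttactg
Gstm5: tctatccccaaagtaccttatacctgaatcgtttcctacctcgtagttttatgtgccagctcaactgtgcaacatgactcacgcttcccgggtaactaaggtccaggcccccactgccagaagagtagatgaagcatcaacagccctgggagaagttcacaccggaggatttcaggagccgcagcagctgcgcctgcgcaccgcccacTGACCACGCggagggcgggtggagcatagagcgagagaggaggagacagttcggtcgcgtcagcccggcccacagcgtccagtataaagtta
Gstm7 upstream: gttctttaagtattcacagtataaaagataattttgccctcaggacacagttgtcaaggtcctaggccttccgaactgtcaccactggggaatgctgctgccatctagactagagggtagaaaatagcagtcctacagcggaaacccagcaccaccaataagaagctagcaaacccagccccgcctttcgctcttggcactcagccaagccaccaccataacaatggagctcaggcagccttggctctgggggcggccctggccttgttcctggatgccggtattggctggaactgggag
Gstm7 downstream: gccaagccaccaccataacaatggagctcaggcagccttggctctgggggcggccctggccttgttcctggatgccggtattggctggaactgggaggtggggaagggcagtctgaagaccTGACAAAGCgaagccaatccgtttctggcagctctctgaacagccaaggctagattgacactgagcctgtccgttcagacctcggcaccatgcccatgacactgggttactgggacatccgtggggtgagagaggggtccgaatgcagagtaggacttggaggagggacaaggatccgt
Gsto1: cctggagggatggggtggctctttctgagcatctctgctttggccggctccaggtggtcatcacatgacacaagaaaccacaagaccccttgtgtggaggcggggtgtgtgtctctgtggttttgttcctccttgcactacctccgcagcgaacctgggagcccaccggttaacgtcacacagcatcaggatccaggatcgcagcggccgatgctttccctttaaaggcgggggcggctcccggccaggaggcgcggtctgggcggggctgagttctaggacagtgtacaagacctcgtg

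Gstm5 held a match 42 bases before its start site, with the letters TGACCACGC, and Gstm7 held a match 129 bases before its downstream start site, with the letters TGACAAAGC. The window of the upstream Gstm7 start site held none, and the match lies after that start site, beyond its window. No match was found in the windows of Gpx3, Gstm2 and Gsto1. The windows of Gstm6, a cluster gene that also lay lower in all Col6a1+ libraries, are not printed and held no match. Those of Gstm1, Gstm3 and Gstm4 held none either. Among all 32851 mouse promoter windows of this length in RefSeq, 4071 (12.4%) held the letters, and by gene 3781 of 27025 (14%) did. Promoter windows were found for 51 members, of which 9 (17.6%) held a match in at least 1 of their windows, namely Gclm, Ggt1, Gsta3, Gstm5, Gstm7, Mgst1, Prdx1, Sod1 and Txnrd1. Of the members named here, those without a window were Cth, Ggt5, Gsr, Gsta4, Hmox1, Prdx6 and Sod3. A match is a description of the letters in this window and is no measure of binding.

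The normalized counts summed to 3039152 to 3425249 per library, and the members made up 0.473% to 0.558% of the sum in Col6a1+ CAFs and 0.514% to 0.703% in Col6a1− CAFs. A Col6a1+ library, replicate 1, stood apart with 14530 genes detected against 18770 to 20511 in the others, and several members were listed at 0 in that library alone. Many of the log2 fold changes printed below that moved or changed sign without that library are therefore given without it as well. Those given once only may have shifted too. Col6a1, whose regulatory sequence drives the Cre, had 861, 1287 and 1941 normalized counts in Col6a1+ libraries and 182, 321 and 102 in Col6a1− libraries, in the direction of the labels (log2 fold change 2.82 ± 0.44 SE, limma adjusted p = 0.00613, or 0.0983 with the replicate number as a block and 0.0348 without replicate 1). Markers of mural cells summed to 41608 to 90229 normalized counts in Col6a1+ libraries and 1118 to 2092 in Col6a1− libraries. The 10 general fibroblast markers summed to 48240 to 53616 and 10359 to 18247, and 6 of them were called higher. The 9 markers of trophocytes and adventitial fibroblasts went the other way, at 1148 to 2649 against 3108 to 5335, and 2 of them were called lower. Trophocytes are fibroblasts that the study places in the Col6a1− population. Markers of epithelial cells, which the sort should have removed, were present in every library and higher in Col6a1− CAFs. The 15 epithelial markers summed to 6604 to 9068 normalized counts in Col6a1+ libraries and 28669 to 48504 in Col6a1− libraries, none was at 0 in any library, and 12 of the 15 passed the test as lower in Col6a1+ CAFs. The 12 immune markers summed to 98 to 126 and 455 to 835 normalized counts, with Ptprc, which encodes CD45, at 0, 2 and 0 in Col6a1+ and 7, 8 and 3 in Col6a1− libraries. The part of epithelial or immune transcripts in the members' values was not tested, and in bulk samples fewer cells of a type and less RNA per cell cannot be told apart.

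**Figure D1:**
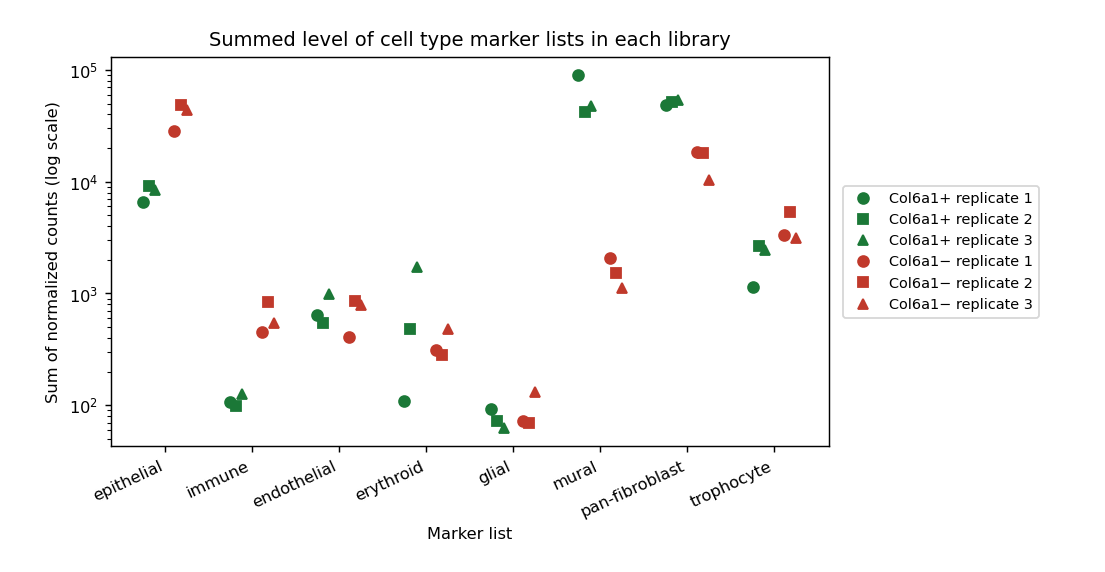
Summed normalized counts of each cell type marker list (log axis) in the 3 Col6a1+ (green) and 3 Col6a1− (red) libraries, with 1 point per library. The epithelial sums were 6604 to 9068 in Col6a1+ and 28669 to 48504 in Col6a1− libraries. Mural and general fibroblast sums were higher in all Col6a1+ libraries, and trophocyte sums were lower (1148 to 2649 against 3108 to 5335).

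Differences are given on the log2(normalized count + 1) scale, Col6a1+ minus Col6a1−, fitted with limma across the 26402 genes that had at least 1 normalized count in total, and a member was called at a Benjamini-Hochberg adjusted p under 0.05 over all of them. Of the 60 members, 58 were tested, and Gpx6 and Gstt4 were at 0 in every library, which allows up to 3 counts in each. Among the tested members 3 (5.17%) were called higher in Col6a1+ CAFs, against 2.66% of all genes tested, and 2 (3.45%) were called lower, against 1.96% of all genes. Ggt5, Gpx3 and Gstm2 were the higher members, Gstm5 and Gsto1 the lower ones, and 53 were not called. More of the members averaged 10 or more normalized counts, 51 of 58, against 13515 of the 26402 genes tested. Fitted over genes at that level alone, 3 of 51 members were called higher and 2 lower. Of the 13515 genes at that level, 815 were called higher and 608 lower. The members were thus called at about the share of all genes at that level, and the excess over all genes tested was not seen there. Scaled to library sums alone, 3 members were higher and 4 lower, with 716 and 628 of all genes. With each of the 6 libraries left out in turn, Ggt5 was still called in 4 of the fits, Gstm5 in 2 and Gpx3, Gstm2 and Gsto1 in none. Without Col6a1− replicate 1, no member was called and 11 genes were higher and 1 lower in all, and without Col6a1− replicate 3 no member was called and 102 genes were higher and 14 lower. At an unadjusted p under 0.05, 7 members (12.1%) were higher, against 6.63% of all genes, and 18 (31%) lower, against 9.4%. That comparison, and those below against all genes tested, were not matched for level. The median log2 fold change of the tested members was -0.46, with 36 below 0 and 22 above, while that of all genes tested was -0.27. These medians were -0.25 and -0.13 without Col6a1+ replicate 1, with 32 members below 0 and 26 above.

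A direction shared by all libraries was more frequent than a call. Of the 51 members averaging 10 or more normalized counts, 8 (15.7%) lay higher in all 3 Col6a1+ than in all 3 Col6a1− libraries, against 14.2% of all genes at that level. A further 18 (35.3%) lay lower in all Col6a1+ libraries, against 17.6% of all genes. The groups of the other members at that level overlapped.

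Deviations of libraries with the same replicate number correlated weakly at 0.25, 0.13 and 0.14, though a pair with different numbers reached 0.15. Pairing was not settled by this, and the replicate number was also used as a block. With the block, no member kept its call over all tested genes, where the smallest adjusted p of any gene was 0.0612 in limma. At an unadjusted p under 0.05, 8 members (13.8%, against 7.01% of genes) were higher and 17 (29.3%, against 9.72%) lower. Over the genes averaging 10 or more normalized counts, the same blocked fit called 4 members higher (7.84%), against 7.26% of genes, and 7 lower (13.7%), against 6.44%. The higher members were then Ggt5, Gpx3, Gstm2 and Sod3, and the lower ones Gpx2, Gss, Gstm5, Gstm7, Gsto1, Prdx6 and Sod1.

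**Figure D2:**
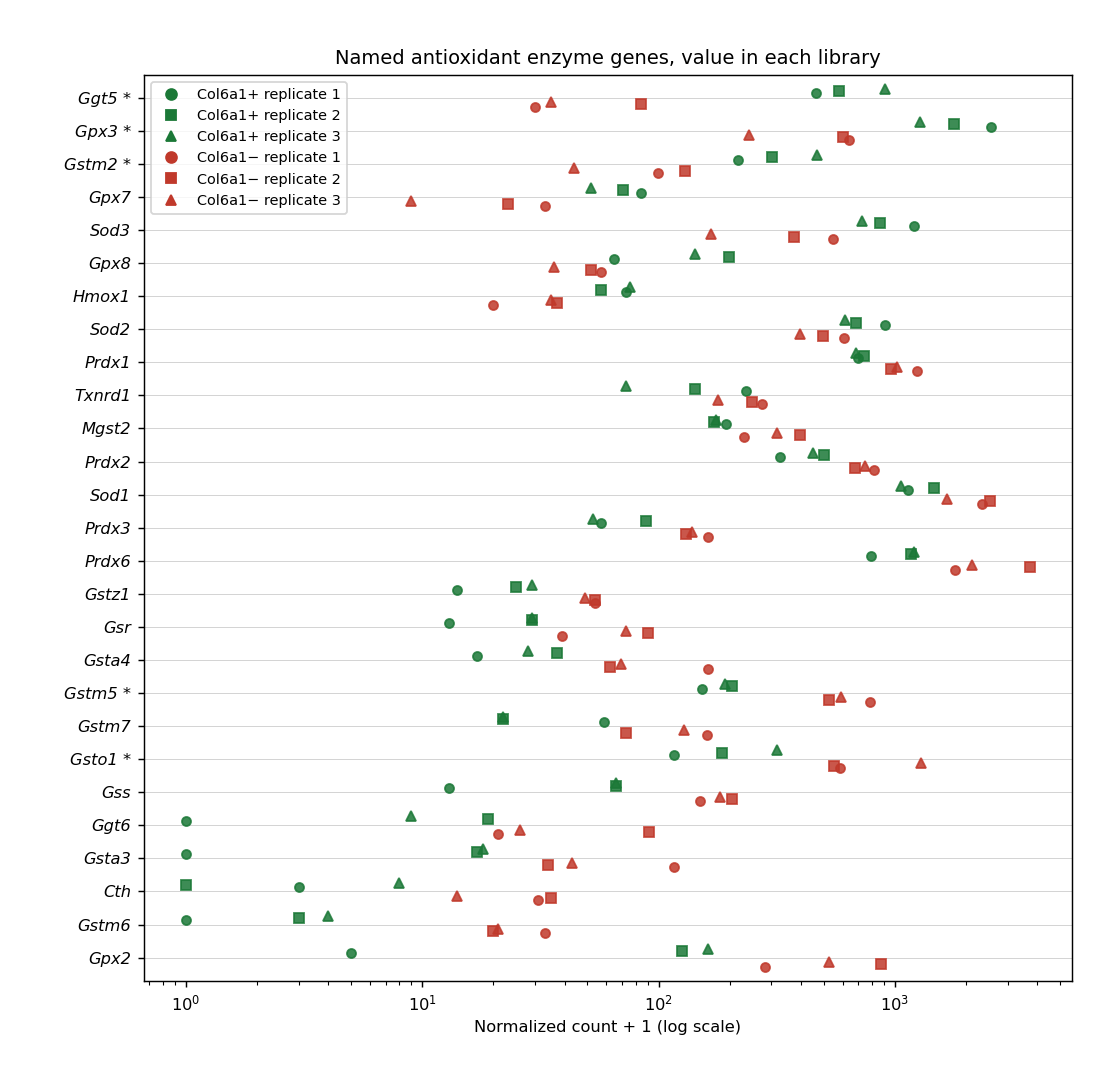
Normalized count plus 1 (log axis) of the 27 members named here in each of the 6 libraries, with Col6a1+ in green, Col6a1− in red and 1 point per library; asterisks mark the 5 called members. Members are ordered by log2 fold change, from Ggt5 at 3.81 to Gpx2 at -3.44, and every named member but Txnrd1 had separate groups.

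Among the enzymes that make glutathione and its precursor cysteine, the ligase genes and the synthetase gene behaved differently. Gss, which completes glutathione, had 12, 65 and 65 normalized counts in Col6a1+ libraries and 149, 204 and 180 in Col6a1− libraries. All Col6a1+ libraries lay below all Col6a1− libraries, and the lowest was replicate 1. The log2 fold change was -2.21 ± 0.61 (SE) and Gss missed the threshold (limma adjusted p = 0.0734), but it was called without Col6a1+ replicate 1 (-1.43, adjusted p = 0.0484) and in the blocked fit over genes averaging 10 or more (adjusted p = 0.0245). The limma adjusted p of Gss was 0.145 with the block over all genes and ranged from 0.0245 to 0.442 over the alternatives. Cth, the gamma-lyase that releases cysteine from cystathionine, had 2, 0 and 7 normalized counts in Col6a1+ and 30, 34 and 13 in Col6a1− libraries, with a log2 fold change of -3.10 and an adjusted p of 0.144 in limma. The predicted gene Gm43314 overlaps Cth on the same strand and had nearly the same counts (2, 0 and 7 against 29, 33 and 10), so that the pair may be counted from the same reads.

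Gclc and Gclm, the catalytic and modifier subunits of the rate-limiting ligase, showed no such separation. Gclm had 714, 437 and 888 normalized counts in Col6a1+ libraries and 603, 457 and 395 in Col6a1− libraries, and the groups overlapped. The log2 fold change was 0.45 for Gclm (95% interval -0.29 to 1.19) and 0.18 for Gclc (-0.93 to 1.29), intervals that leave room for a difference in either direction. The Gclc value was 0.01 without Col6a1+ replicate 1. Cbs, which makes cystathionine, had between 1 and 23 normalized counts in all libraries.

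The genes of glutathione recycling and breakdown held the largest difference among the members. Ggt5, a cell-surface gamma-glutamyl transferase known for converting leukotriene C4 to leukotriene D4 (ENSMUSG00000006344, mm10 chromosome 10, 75589340 to 75617200, plus strand), had 464, 580 and 904 normalized counts in Col6a1+ libraries and 29, 83 and 34 in Col6a1− libraries. Every Col6a1+ library was above every Col6a1− library by a wide margin. The means were 649 ± 228 and 48.7 ± 29.8 (SD, n = 3 each), a 13.3-fold ratio, and the log2 fold change was 3.81 ± 0.45 (SE, limma adjusted p = 0.00182). The blocked fit gave an adjusted p of 0.0612 over all genes and 0.00193 over genes averaging 10 or more, and without Col6a1+ replicate 1 the log2 fold change was 4.03 (adjusted p = 0.0230). Over all alternatives the adjusted p of Ggt5 ranged from 0.000599 to 0.0818. The antisense gene Gm9985 had 5 counts in 1 library and none in the others.

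Ggt1 lies 3139 bases from Ggt5 on chromosome 10 and did not share its pattern. Its normalized counts were 0, 50 and 37 in Col6a1+ libraries and 9, 141 and 45 in Col6a1− libraries, so the groups overlapped (log2 fold change -1.69, limma adjusted p = 0.605). That value rested on the 0 in Col6a1+ replicate 1, without which it turned to 0.13 (adjusted p = 0.949). Ggt6 had 0, 18 and 8 against 20, 90 and 25 (-2.73, adjusted p = 0.268, or -1.49 without Col6a1+ replicate 1), and Gsr had 12, 28 and 28 against 38, 89 and 72 (-1.52, adjusted p = 0.212, or -1.13 without that library). Neither of these was called, although both were lower in all Col6a1+ libraries. Summed over the 5 genes of this group, the Col6a1+ libraries had 476, 684 and 988 normalized counts and the Col6a1− libraries 96, 404 and 179, an order that Ggt5 alone set.

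The glutathione peroxidases divided by gene rather than moving together. Gpx3, the secreted plasma form (ENSMUSG00000018339, mm10 chromosome 11, 54902453 to 54910377, plus strand), had 2554, 1775 and 1275 normalized counts in Col6a1+ libraries and 636, 600 and 239 in Col6a1− libraries. The lowest Col6a1+ library was above the highest Col6a1− library. The means were 1868 ± 645 and 492 ± 220 (SD, n = 3 each), a 3.80-fold ratio, with a log2 fold change of 1.99 ± 0.41 (SE, limma adjusted p = 0.0230). The blocked fit gave an adjusted p of 0.0612 over all genes and 0.00311 over genes averaging 10 or more. Without Col6a1+ replicate 1, which had the highest count, the log2 fold change was 1.74 and the call was lost (adjusted p = 0.111). Across the alternatives its adjusted p ran from 0.00311 to 0.255.

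Gpx7 and Gpx8, peroxidases of the endoplasmic reticulum, also lay higher in all Col6a1+ libraries, without passing the test. Gpx7 had 83, 70 and 51 normalized counts against 32, 22 and 8 (log2 fold change 1.83, limma adjusted p = 0.143). Gpx8 had 64, 198 and 142 against 56, 51 and 35 (1.37, adjusted p = 0.175), and was called without Col6a1+ replicate 1, which was its lowest Col6a1+ library (1.83, adjusted p = 0.0490). Over the alternatives the limma adjusted p of Gpx8 ranged from 0.0490 to 0.511.

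Gpx2, the peroxidase known from gut epithelium, went the other way. It had 4, 124 and 160 normalized counts in Col6a1+ libraries and 280, 874 and 523 in Col6a1− libraries. The groups did not overlap, and Col6a1+ replicate 1 was far below the other Col6a1+ libraries. The antisense gene Fntb had 0, 50 and 23 against 91, 43 and 45 normalized counts. The log2 fold change of Gpx2 was -3.44 ± 1.08 (SE, limma adjusted p = 0.115), or -1.83 without Col6a1+ replicate 1 (adjusted p = 0.104). The blocked fit over genes averaging 10 or more called Gpx2 (adjusted p = 0.0161, from a span of 0.0161 to 0.722 across alternatives). The epithelial marker sum was likewise lower in all Col6a1+ libraries, at 6604 to 9068 against 28669 to 48504 normalized counts, and its part in the Gpx2 values was not tested.

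Gpx1, the ubiquitous cytosolic peroxidase, had 1514, 2761 and 2993 normalized counts in Col6a1+ and 2050, 3663 and 2076 in Col6a1− libraries. The groups overlapped, and the 95% interval of its log2 fold change was -0.89 to 0.68, around a value of -0.11 that turned to 0.20 without Col6a1+ replicate 1. Gpx4, the phospholipid hydroperoxide peroxidase that restrains ferroptosis, had 15, 86 and 64 against 57, 67 and 39 (-0.27, limma adjusted p = 0.837), a value that turned to 0.48 without Col6a1+ replicate 1. These Gpx4 counts are uncertain, because a pseudogene, Gpx4-ps2, is 99.7% identical to its last 300 bases and was given 179, 234 and 246 against 167, 259 and 121. Their sum, 194, 320 and 310 against 224, 326 and 160, overlapped between the groups as well.

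Cytosolic glutathione transferases were the most numerous role, with 21 members, of which 20 were tested. Of these, 1 was called higher and 2 lower, the median log2 fold change was -0.99, and of the 16 averaging 10 or more normalized counts 7 lay lower and 1 higher in all Col6a1+ libraries. Over all genes the called shares were 2.66% and 1.96%, and the separate groups 17.6% lower and 14.2% higher. The mu class showed both directions within a single gene cluster of chromosome 3 (mm10, 107895821 to 108044894), in the order Gstm5, Gstm7, Gstm6, Gstm3, Gstm2, Gstm1 and Gstm4, with Gstm5 on the plus strand and the others on the minus strand.

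Gstm2, a muscle-type transferase (ENSMUSG00000040562, 107981702 to 107986453), had 215, 302 and 465 normalized counts in Col6a1+ libraries and 98, 128 and 43 in Col6a1− libraries. The groups were separate, with Col6a1− replicate 3 the lowest of all. The means were 327 ± 127 and 89.7 ± 43.1 (SD, n = 3 each), a 3.65-fold ratio, with a log2 fold change of 1.92 ± 0.47 (SE, limma adjusted p = 0.0438). The adjusted p was 0.194 with the block over all genes, 0.0339 with it over genes averaging 10 or more, and 0.0766 without Col6a1+ replicate 1, where the log2 fold change was 2.19. Its range over the alternatives was 0.0302 to 0.295.

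Gstm5 (ENSMUSG00000004032, 107895821 to 107898686) had 151, 204 and 190 normalized counts in Col6a1+ libraries and 782, 524 and 590 in Col6a1− libraries. The spread within each group was small beside the distance between them. The means were 182 ± 27.5 and 632 ± 134 (SD, n = 3 each), a 3.48-fold ratio, with a log2 fold change of -1.78 ± 0.30 (SE, limma adjusted p = 0.00882). The call was lost with the block over all genes (adjusted p = 0.0797) and held with the block over genes averaging 10 or more (0.00733) and without Col6a1+ replicate 1 (0.0328), and spanned 0.00582 to 0.0903 across alternatives. The antisense gene 4933431E20Rik had 17, 19 and 16 against 89, 33 and 69 normalized counts, and strand use in the counting is not given in the sources used here.

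Gstm7 and Gstm6, which lie next to Gstm5, were also lower in all Col6a1+ libraries but were not called. Gstm7 had 58, 21 and 21 normalized counts against 159, 72 and 127 (log2 fold change -1.90, limma adjusted p = 0.0822), and passed without Col6a1+ replicate 1 (-2.38, adjusted p = 0.0422). Over the alternatives its limma adjusted p ranged from 0.0290 to 0.326. Gstm6 had 0, 2 and 3 against 32, 19 and 20 (-3.39, adjusted p = 0.0825, or -2.79 without Col6a1+ replicate 1), a fitted value that depends on the added count of 1, since its Col6a1+ counts did not pass 3. Gstm2 is separated from Gstm3 by 12418 bases and from Gstm1 by 25801 bases, and neither of these neighbours followed it. Gstm1 had overlapping groups with a log2 fold change of 0.49, Gstm4 had 0, 29 and 29 against 15, 19 and 24 normalized counts (-1.05, or 0.59 without Col6a1+ replicate 1), and Gstm3 had no counts in Col6a1+ libraries and 0, 4 and 6 in Col6a1− libraries. The last 300 bases of the transcripts of Gstm2, Gstm5, Gstm6 and Gstm7 had no match of at least 95% identity over 100 bases in another gene, whereas Gstm1 had such matches in pseudogenes.

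**Figure D3:**
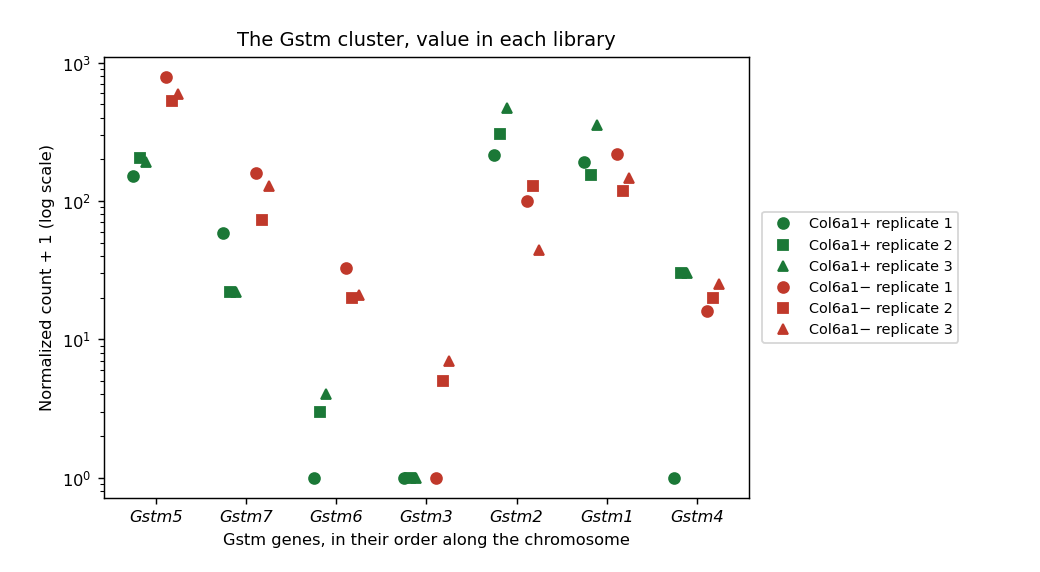
Normalized count plus 1 (log axis) of the 7 Gstm genes in their order along the chromosome, in 3 Col6a1+ (green) and 3 Col6a1− (red) libraries, with 1 point per library. Gstm5, Gstm7 and Gstm6 were lower and Gstm2 was higher in all Col6a1+ libraries, and a point at 1 is a normalized count of 0.

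Gsto1, an omega-class transferase that acts as a dehydroascorbate and thiol reductase (ENSMUSG00000025068, mm10 chromosome 19, 47854970 to 47864790, plus strand), had 115, 184 and 317 normalized counts in Col6a1+ libraries and 586, 550 and 1289 in Col6a1− libraries. All Col6a1+ libraries were below all Col6a1− libraries. The means were 205 ± 103 and 808 ± 417 (SD, n = 3 each), a 3.94-fold ratio, with a log2 fold change of -1.98 ± 0.44 (SE, limma adjusted p = 0.0316). The adjusted p was 0.0618 with the block over all genes, 0.00380 with it over genes averaging 10 or more and 0.121 without Col6a1+ replicate 1 (log2 fold change -1.62), and ranged from 0.00380 to 0.288 over the alternatives. The antisense gene Cfap43 had 131, 108 and 89 against 62, 66 and 50 normalized counts, the opposite order.

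The alpha and zeta classes also held members that were lower in all Col6a1+ libraries without being called. Gsta4, which clears the lipid peroxidation product 4-hydroxynonenal, had 16, 36 and 27 normalized counts against 161, 61 and 68 (log2 fold change -1.77, limma adjusted p = 0.114, or -1.46 without Col6a1+ replicate 1). Gsta3 had 0, 16 and 17 against 115, 33 and 42 (-3.04, adjusted p = 0.187, or -1.66 without Col6a1+ replicate 1). Gstz1, which also works in tyrosine breakdown, had 13, 24 and 28 against 53, 53 and 48 (-1.27, adjusted p = 0.280, or -0.96 without Col6a1+ replicate 1). Epithelial markers were lower in the same libraries, at the sums given above, and their part in these values was not tested. The pi class, the main transferases of many tumors, had overlapping groups, with log2 fold changes of 0.12 for Gstp1 and 0.07 for Gstp2 (0.12 for each without Col6a1+ replicate 1). Gstp1, Gstp2 and the pseudogene Gstp-ps have stretches of 100% identity within their last 300 bases, so reads could be split among them, and their summed normalized counts of 946, 764 and 1586 against 1283, 967 and 534 overlapped too. In the theta class, Gstt1 and Gstt3 had log2 fold changes of 0.49 and 0.38 and Gstt2 of -2.06, none called. Without Col6a1+ replicate 1, where Gstt2 was at 0, Gstt2 was at -0.46 and Gstt1 at 0.98.

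Of the 4 mitochondrial and membrane-bound transferases none was called by limma, and Mgst2 alone had separate groups and an unadjusted p under 0.05. Mgst2, a microsomal enzyme with leukotriene C4 synthase activity, had 191, 171 and 173 normalized counts in Col6a1+ and 229, 394 and 316 in Col6a1− libraries (log2 fold change -0.78, limma adjusted p = 0.251). Mgst3 had 0, 66 and 40 against 70, 109 and 65 (-2.52, adjusted p = 0.384), and its value was -0.61 without Col6a1+ replicate 1. Gstk1, the mitochondrial kappa form, had a log2 fold change of -0.02 and Mgst1 of -0.41, which became 0.79 and -0.78 without that library.

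Peroxiredoxins, abundant thiol peroxidases of the cytosol, mitochondria and endoplasmic reticulum, were not called by limma, yet 4 of the 6 lay lower in all Col6a1+ libraries, each at an unadjusted p under 0.05. Of all genes, 17.6% of those averaging 10 or more lay so and 9.4% of those tested were lower at that unadjusted p. Prdx6, which reduces phospholipid hydroperoxides with glutathione, had 788, 1172 and 1199 normalized counts against 1788, 3710 and 2120. The log2 fold change was -1.22 ± 0.34 (SE, limma adjusted p = 0.0712), and the blocked fit over genes averaging 10 or more gave an adjusted p of 0.0173. The limma adjusted p was 0.105 with the block over all genes and 0.193 without Col6a1+ replicate 1. Over the alternatives it ranged from 0.0173 to 0.389. Prdx3, the mitochondrial enzyme, had 56, 87 and 52 against 161, 129 and 138 (-1.15, adjusted p = 0.136).

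The cytosolic Prdx1 and Prdx2 had smaller differences. Prdx1 had 699, 741 and 686 normalized counts against 1236, 962 and 1016 (log2 fold change -0.59, limma adjusted p = 0.290), and Prdx2 had 325, 502 and 450 against 810, 678 and 742 (-0.82, adjusted p = 0.154). Both have near-identical copies elsewhere in the genome at their 3′ ends, so their counts may be split. Prdx2 also overlaps the antisense gene Junb, which had 12030, 13221 and 15662 against 7902, 10174 and 10807 normalized counts. Prdx5 had 944, 744 and 2022 against 895, 796 and 584 normalized counts and Prdx4, of the endoplasmic reticulum, 14, 34 and 44 against 22, 23 and 15, and for both the groups overlapped. The log2 fold change of Prdx4 was 0.47, or 0.94 without Col6a1+ replicate 1. Summed over the 6 genes, Col6a1+ libraries had 2826 to 4453 and Col6a1− libraries 4615 to 6298 normalized counts.

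Thioredoxins and their reductases showed the least separation, with none of the 5 members having separate groups and none past an unadjusted p of 0.05 in limma. Txn1, the main cytosolic thioredoxin, had a log2 fold change of -0.39 with a 95% interval of -0.99 to 0.20. Txnrd1, its selenoprotein reductase, had the smallest p of the group, with 234, 141 and 72 normalized counts against 274, 248 and 177 (-0.77, limma adjusted p = 0.435, or -1.18 without Col6a1+ replicate 1). The others, Txn2, Txnrd2 and Txnrd3, had log2 fold changes of -0.52, 0.37 and 0.87, so both signs occurred in this group. Without that library Txn2 was at -0.12 and Txnrd2 at 0.09.

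**Figure D4:**
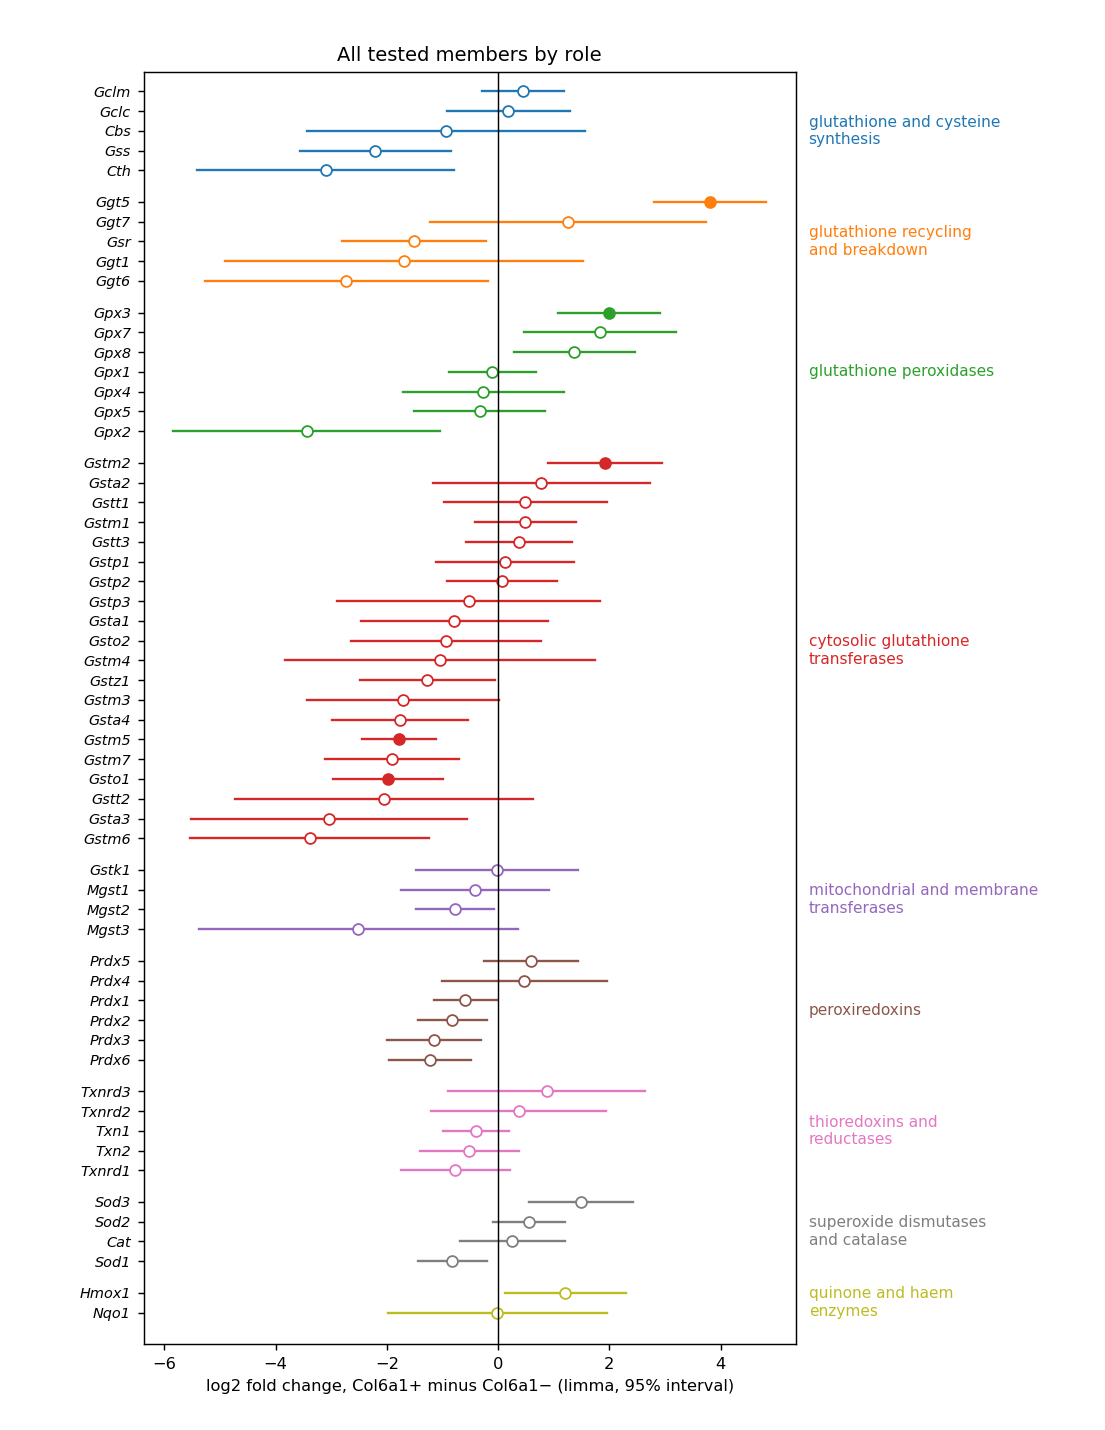
Log2 fold change of the 58 tested members (Col6a1+ minus Col6a1−, limma), grouped by role; horizontal lines are 95% intervals and filled points mark the 5 called members. Values run from -3.44 for Gpx2 to 3.81 for Ggt5, and each role other than the mitochondrial and membrane transferases has points on both sides of 0.

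The superoxide dismutases, which act in different places, had different orders. Sod3, the extracellular enzyme that binds to heparan sulfate of the matrix, had 1197, 862 and 726 normalized counts in Col6a1+ libraries and 547, 373 and 165 in Col6a1− libraries. The groups were separate. The means were 928 ± 242 and 362 ± 191 (SD, n = 3 each), a 2.57-fold ratio, with a log2 fold change of 1.49 ± 0.42 (SE, limma adjusted p = 0.0820), and the blocked fit over genes averaging 10 or more called it (adjusted p = 0.0131). The limma adjusted p was 0.106 with the block over all genes and 0.236 without Col6a1+ replicate 1 (log2 fold change 1.29). Over the alternatives it ranged from 0.0131 to 0.481.

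Sod1, the cytosolic copper-zinc enzyme, had 1138, 1461 and 1062 normalized counts against 2341, 2519 and 1663, lower in all Col6a1+ libraries (log2 fold change -0.82, limma adjusted p = 0.151, and 0.0481 with the block over genes averaging 10 or more). Over the alternatives its limma adjusted p ranged from 0.0481 to 0.436. The Sod1 3′ end has a near-identical copy in the pseudogene Gm8566 (97.8% identity), which had 153 normalized counts over the libraries, against 10184 for Sod1. A stretch of the Sod2 3′ end matches stretches of Churc1, Tmem245, Sag and Gm26909 at up to 96.3% identity. Counts of Sod1 and Sod2 may therefore be split. Sod2, the mitochondrial manganese enzyme, had 903, 686 and 614 against 607, 497 and 394 (0.56, adjusted p = 0.401). Its groups were separate by a narrow margin, 614 against 607. Catalase (Cat) had a log2 fold change of 0.25 with a 95% interval of -0.69 to 1.20.

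Of the pair of NRF2-linked enzymes outside the thiol systems, Hmox1, which breaks down haem, had 72, 56 and 75 normalized counts in Col6a1+ and 19, 36 and 34 in Col6a1− libraries. It lay higher in all Col6a1+ libraries and was not called (log2 fold change 1.20, limma adjusted p = 0.245). Nqo1, a quinone reductase used as a readout of NRF2 activity, had 12, 14 and 5 against 7, 7 and 18, a log2 fold change of -0.02 (-0.17 without Col6a1+ replicate 1) and a 95% interval of -1.99 to 1.95 that holds large differences in both directions. The remaining 31 tested members, those neither called nor with separate groups among those averaging 10 or more normalized counts nor standing for their role, had log2 fold changes of -2.52 to 1.25 (14 above 0 and 17 below), with a smallest adjusted p of 0.315 in limma. They ran from -1.71 to 2.38 without Col6a1+ replicate 1, with 18 above 0 and 13 below.

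Several genes that supply or control this system outside the family differed as well, from 7 lists of 172 genes in all, of which 163 were tested. Over these lists 3 genes (1.84%) were called higher in Col6a1+ CAFs, against 2.66% of all genes, and 11 (6.75%) lower, against 1.96%. These shares were not matched for level. Another 149 were not called, and the median log2 fold change was -0.37, against -0.27 for all genes tested. Without Col6a1+ replicate 1, 1 gene of the lists was higher and 7 lower, with 453 and 442 of all genes. Without Col6a1+ replicate 2 there were 0 and 2, with 292 and 218 of all genes. Without any of the other libraries, Col6a1− ones included, none was called. On the supply side, Slc7a11, the cystine importer that feeds glutathione synthesis, had 37, 15 and 43 normalized counts against 161, 94 and 165 (log2 fold change -2.19, limma adjusted p = 0.0374). The conjugate exporters Abcc2, with 0, 4 and 3 against 170, 38 and 72 (-4.86, adjusted p = 0.0160), and Abcc4 (-1.34, adjusted p = 0.0467) were also lower. Clic4, a chloride channel protein with a transferase-like fold, was higher at 496, 940 and 784 against 261, 301 and 314 (1.29, adjusted p = 0.0437).

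Among the methionine cycle genes, Ahcy, which clears S-adenosylhomocysteine, was lower (43, 38 and 33 against 106, 180 and 143, log2 fold change -1.86, limma adjusted p = 0.0287). Gamt, which makes creatine with the same methyl donor, was higher (229, 160 and 202 against 51, 6 and 5, 3.92, adjusted p = 0.0165). The regulators of the pathway, Nfe2l2 (NRF2) and Keap1, were not called: Nfe2l2 had 189, 154 and 133 normalized counts against 191, 137 and 165 and a log2 fold change of -0.05 (-0.19 without Col6a1+ replicate 1), and Keap1 had 40, 261 and 133 against 87, 125 and 396 (-0.54, or 0.19 without Col6a1+ replicate 1). Nfe2l3, an NRF2 relative, was lower (0, 1 and 1 against 116, 14 and 42, adjusted p = 0.0286), with Col6a1+ counts too few for a stable fold. Of 28 NRF2 targets outside the family, Cbr3 was higher (253, 85 and 101 against 30, 11 and 8, 3.13, adjusted p = 0.0209), and Pgd, which makes NADPH in the pentose phosphate path, and Akr1c13 were lower (-1.31, adjusted p = 0.0290, and -2.50, adjusted p = 0.0159).

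Of 21 tested genes that produce oxidants, 0 were called higher and 3 lower in Col6a1+ CAFs, against 2.66% and 1.96% of all genes. Cyba, a subunit of several NADPH oxidases, had 139, 181 and 128 normalized counts against 494, 573 and 476 (log2 fold change -1.79, limma adjusted p = 0.00810). Noxo1, which organizes the epithelial oxidase NOX1, had 106, 87 and 67 against 304, 530 and 323 (-2.12, adjusted p = 0.00898). Duox2, an oxidase of mucosal epithelium, had 518, 526 and 570 against 997, 2955 and 1923 (-1.73, adjusted p = 0.0272). The epithelial and the immune marker sums were both lower in all Col6a1+ libraries too, and the part of either in these values was not tested.

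Msrb2, a mitochondrial methionine sulfoxide reductase, was the called gene of the thioredoxin-linked list (3, 18 and 11 against 176, 43 and 148, log2 fold change -3.44, limma adjusted p = 0.0313). None of 25 genes for selenoproteins and their synthesis outside the family was called in limma, with 2 higher and 3 lower at an unadjusted p under 0.05. With the replicate block over all genes, none of these pathway genes was called by limma, with adjusted p values of 0.0612 or above.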

How the data were processed

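Sorted cells from adenomas were profiled with QuantSeq, a method that sequences the 3′ ends of mRNAs. The authors aligned the reads to mm10 with TopHat2, and those left over with Bowtie2. The authors used GenomicRanges for gene counts and DESeq, run through metaSeqR, for normalization. They deposited the log2 of the normalized count plus 1, which in all libraries gave whole normalized counts in 100% of values within a tolerance of 0.01. Unnormalized depth is therefore unknown, and counts are not divided by gene length. Sums and ratios over genes were compared only between libraries, and levels of different genes were not otherwise compared. The authors' own p-values, false discovery rates and fold changes and a further 6 per-sample columns in the deposited table were not used. Reads from genes with near-identical 3′ ends may be divided between them. Of the 27 members described in full, 9 overlapped another gene with counts on either strand. They were Cth, Gss, Ggt5, Gpx2, Gstm5, Gsto1, Gstz1, Prdx2 and Txnrd1, and strand use in the counting is not given in the sources used here.

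Groups and replicate numbers came from the labels, and p-values measure the spread between these pools of tumors. No pair of libraries of a group agreed within sampling noise. The log2 values were fitted with limma 3.58.1 in R 4.3.3 (2 groups, eBayes with a mean-variance trend, residual degrees of freedom 4, prior 6.48) and adjusted by the Benjamini-Hochberg method. Over 13515 genes averaging 10 or more normalized counts, deviations from the group means were correlated between libraries. They correlated at 0.25, 0.13 and 0.14 for the 3 same-numbered pairs and at -0.25 to 0.15 for the others. These ranges overlap, and the labels do not say what a number marks. Pairing is therefore not settled, and the block is given beside the results. The limma step was tested on simulated data.

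Every member was accounted for. The 27 described in full were called, or had separate groups and averaged 10 or more normalized counts, or had the smallest p of a role with neither. Further members given library by library were chosen after their values were seen, to complete their families. The members and the lists of other genes were chosen with earlier results of these data known. Sums over look-alike genes, overlapping genes and ratios within a library were added after the values were seen. Promoters were read from RefSeq (GRCm38.p6), and the last 300 bases of GENCODE M21 transcripts were compared with BLAST 2.17.0 (at least 95% identity over at least 100 bases). Alternatives changed the scaling, the filter, the genes tested, the pseudocount, the variance model, the test, the block and the libraries.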

Additional observations from a re-analysis of the deposited data

How the results depend on the processing

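The 5 called members and the 22 others that had separate groups or stood for their role kept the sign of their log2 fold change under every alternative run. Other members did not, and Ggt1, Gpx1, Gpx4, Gstm4 and Nqo1 were among those that changed sign under at least 1 alternative. All of the 27 but Txnrd1 had separate groups. Such groups keep their order when a library is left out or when the pseudocount, filter, trend or block changes. For those settings the kept sign was fixed by the choice of members and adds no support. Of 459 values for the 27 members, 386 stayed on the same side of the threshold, 40 lost a call and 33 gained one. Only the 5 called members could lose a call, and most of the 386 were values of uncalled members that stayed uncalled. Of the 33 gains, 16 came from the looser unadjusted criterion. The number of members called depended on the setting, from 3 higher and 2 lower as reported, where 703 of all genes were higher and 517 lower. The counts over all genes moved with the setting as well. With the replicate block over all genes it was 0 higher and 0 lower, and with the replicate block over genes averaging 10 or more normalized counts 4 higher and 7 lower. Without a filter on low values it was 0 and 0, when fewer genes of any kind were called (21 higher and 7 lower). Without the mean-variance trend it was 1 and 1, with 363 and 429 of all genes. Scaling to library sums gave 4 lower members, limma-voom 6 lower and a pseudocount of 0.1 gave 1 lower. Of all genes, 628, 1006 and 336 were lower under these 3 settings. The unadjusted criterion (p under 0.05 with a log2 fold change beyond 1 in size) gave 7 higher and 14 lower members, and its count over all genes is not given here.

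Leaving out a library gave 0 to 2 members higher and 0 to 3 lower. Leaving out Col6a1+ replicate 1 gave 2 higher (Ggt5 and Gpx8) and 3 lower (Gss, Gstm5 and Gstm7), Col6a1+ replicate 2 gave Ggt5 and Gstm5, and Col6a1+ replicate 3 or Col6a1− replicate 2 left Ggt5 alone. Of all genes, 453 were higher and 442 lower without Col6a1+ replicate 1, and 292 and 218 without Col6a1+ replicate 2. There were 179 and 149 without Col6a1+ replicate 3, and 180 and 52 without Col6a1− replicate 2. Without Col6a1− replicate 1 or 3 no member was called, when 11 and 102 genes were higher and 1 and 14 lower in all.

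Of the pathway genes outside the family, 3 higher and 11 lower as reported, the counts were 0 and 0 without the filter and 0 and 0 with the replicate block, 0 and 3 without the trend, 7 and 21 with the replicate block over genes averaging 10 or more, and 8 and 32 by the unadjusted criterion. A pseudocount of 0.1 gave 6 lower and limma-voom 18. Without single libraries there were 0 to 1 higher and 0 to 7 lower. The counts over all genes moved across these settings too, as given above for the members. The cause of these changes was not tested. With 3 libraries per group and normalized counts only, small differences in members with few counts may have been missed.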

Other observations

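The balance of members within a library does not depend on the scaling between libraries, and these ratios were chosen after the values were seen and carry no test. The ratio of the normalized counts of Gstm2 to those of Gstm5 was 1.42, 1.48 and 2.45 in Col6a1+ libraries and 0.125, 0.244 and 0.0729 in Col6a1− libraries. The ratio of Sod3, the extracellular superoxide dismutase, to Sod1, the cytosolic one, was 1.05, 0.590 and 0.684 against 0.234, 0.148 and 0.0992. The ratio of Gpx3, the secreted peroxidase, to Gpx1, the cytosolic one, was 1.69, 0.643 and 0.426 against 0.310, 0.164 and 0.115. The groups were separate for all of these ratios. For Gstm2 over Gstm5 and Sod3 over Sod1 this had to be so, because each gene already had separate groups in opposite directions. These ratios therefore restate the values above and add no support.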
